A study of Mus musculus with 6 samples.

Results

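The laminins, nidogens and perlecan of vascular smooth muscle cells were followed across 3 Jag1 genotypes. The 10 members were chosen by gene symbol from the 37309 genes of the deposited table: the laminin alpha chains Lama2, Lama3, Lama4 and Lama5, the beta chains Lamb1 and Lamb2, the gamma chain Lamc1, the nidogens Nid1 and Nid2, and perlecan (Hspg2). The rule uses gene symbols and no measured value, but the list was drawn up with earlier results of these data known. The cells were taken from mouse embryos of day 14.5, from the descending part of the aorta, and each genotype was sequenced in 2 libraries. The wildtype libraries were labelled JAG1 lox/lox Cre-, the heterozygous libraries JAG1 lox/+ Cre+ and the knockout libraries JAG1 lox/lox Cre+. All 3 groups therefore carried a floxed Jag1 allele, and Cre was present in the heterozygous and knockout groups alone. In comparisons with wildtype, Cre and the loss of Jag1 cannot be told apart. The labels do not give the promoter that drives Cre, the exons deleted or whether the replicates came from separate embryos, so p-values measure only the spread between these libraries.

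Basement membranes are thin sheets of matrix that surround each smooth muscle cell of an artery and lie beneath its endothelium. Laminins are trimers of an alpha, a beta and a gamma chain that assemble into a sheet at the cell surface, where the ends of the alpha chains bind integrins and dystroglycan. Nidogens bind the gamma chain of laminin and the type IV collagen network, and perlecan is a large heparan sulphate proteoglycan that links both and holds growth factors. Jag1 encodes a ligand of the Notch receptors, and signalling from smooth muscle cell to smooth muscle cell through it promotes their contractile state.

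The promoters are shown for the members with an entry in the RefSeq promoter table (build GRCm38.p6) that passed the test in at least 1 comparison, together with Lamb2, the other beta chain, as the contrast to Lamb1. RefSeq entries were found for 6 of the 10 members. Each line gives the 250 bases before the annotated start, 5′ to 3′ on the strand of the gene. Capitals mark TGGGAA or its reverse complement TTCCCA, the core letters read by Rbpj, the DNA-binding factor of the Notch pathway. The windows lie at chr12:31265043-31265292 on the plus strand for Lamb1, chr9:108479612-108479861 on the plus strand for Lamb2, chr13:13437352-13437601 on the plus strand for Nid1 and chr10:27616943-27617192 on the minus strand for Lama2.
Lamb1: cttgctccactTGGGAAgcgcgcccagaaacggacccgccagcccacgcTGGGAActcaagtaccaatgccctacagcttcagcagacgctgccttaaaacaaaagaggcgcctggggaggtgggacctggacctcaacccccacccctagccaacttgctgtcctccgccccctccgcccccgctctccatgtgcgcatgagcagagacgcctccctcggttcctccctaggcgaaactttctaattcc
Lamb2: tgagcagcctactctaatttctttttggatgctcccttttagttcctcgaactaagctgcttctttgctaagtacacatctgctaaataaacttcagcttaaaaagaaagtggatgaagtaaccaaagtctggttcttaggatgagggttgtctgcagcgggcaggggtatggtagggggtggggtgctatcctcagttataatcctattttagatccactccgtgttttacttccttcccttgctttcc
Nid1: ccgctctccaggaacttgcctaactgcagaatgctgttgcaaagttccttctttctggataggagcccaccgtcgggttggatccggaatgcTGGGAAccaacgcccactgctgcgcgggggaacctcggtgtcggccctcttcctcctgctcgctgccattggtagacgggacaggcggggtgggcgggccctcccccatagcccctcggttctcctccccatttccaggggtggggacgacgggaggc
Lama2: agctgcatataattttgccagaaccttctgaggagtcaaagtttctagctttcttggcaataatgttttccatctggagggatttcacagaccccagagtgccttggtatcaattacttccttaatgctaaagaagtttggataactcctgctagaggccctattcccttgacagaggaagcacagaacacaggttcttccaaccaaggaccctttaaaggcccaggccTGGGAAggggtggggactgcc
The letters occurred at 2 places before Lamb1, with first bases 239 and 201 bases before the start. They occurred once before Nid1, at 158 bases, and once before Lama2, at 21 bases. The Lamb2 window held none. With Hspg2, which held them once at 33 bases, and Lama5, which held none, 4 of the 6 windows had a match on either strand, and so did 21.6% of 32851 RefSeq promoter windows of this length. The GC-rich motif GGGCGG, on either strand, was present in 4 of the 6 windows and in 32.7% of all windows. A match is a description of letters and not a binding site.

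Reads in genes numbered 17323962 to 28123670 per library. Jag1 had scaled values (read counts divided by 1 size factor per library) of 1964.7 and 1884.6 in wildtype, 491.8 and 584.3 in heterozygous and 19.94 and 35.44 in knockout libraries, in the order of the labels. Smooth muscle markers were present in every library, with a summed scaled value of 142267 to 207481 over 7 genes, and 4 of the 7 fell in knockout and 3 of the 7 in heterozygous against wildtype. The summed scaled value of Ddx3y, Eif2s3y, Uty and Kdm5d, which lie on the Y chromosome, was 1748.1 to 2331.8 in wildtype and heterozygous, and 10.88 and 19.55 in knockout. Xist, the RNA of the inactive X chromosome, was present in every library, with scaled values of 3329.4 and 3439.9 in wildtype, 3697.7 and 4351.3 in heterozygous and 5622.2 and 5785.2 in knockout. The wildtype and heterozygous libraries thus held transcripts of both kinds. The difference in these transcripts cannot be told apart from genotype in both comparisons of the knockout. No member lies on a sex chromosome, and the part of this difference in the member results was not tested. Markers of skeletal muscle summed to at most 4.53, with Myf5 and Ckm at 0 in every library.

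Nid1, the major nidogen, and Hspg2 were the most abundant members per length, and Lama3 was close to the limit of detection. Wildtype levels, as scaled values per kilobase of the deposited gene length, were 5899.8 ± 78.4 (SD, n = 2) for Nid1 and 1629.8 ± 301.4 (SD, n = 2) for Hspg2. Among genes tested, the wildtype level of Nid1 lay above 99.3% and that of Hspg2 above 96.6%. The beta and gamma chains followed, with Lamb1 at 1013.9 ± 56.8, Lamb2 at 714.1 ± 46.9 and Lamc1 at 702.0 ± 40.3 per kilobase (SD, n = 2), and the wildtype libraries of Lamb2 and Lamc1 overlapped. Nid2 came next at 341.9 ± 22.3 per kilobase (SD, n = 2). The alpha chains were the lowest members on this scale: Lama5 reached 117.0 ± 11.1, Lama2 73.4 ± 3.44, Lama4 50.6 ± 2.87 and Lama3 1.76 ± 0.427 per kilobase (SD, n = 2). The 10 members together held 0.372% to 0.459% of all scaled values in a library.

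The order of levels depended on the length used. The deposited lengths of Lama4 and Lamb1, 14054 and 12600 bases, were over 2 times the longest GENCODE M21 transcripts of 6046 and 5784 bases. With those transcript lengths, a choice made after seeing the data, wildtype Lamb1 reached 2208.6 per kilobase and its libraries overlapped those of Hspg2 at 2131.2. Lama4 then reached 117.5 per kilobase and stood above Lama2 at 77.7. Changes of 1 gene between genotypes do not depend on its length.

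**Figure D1:**
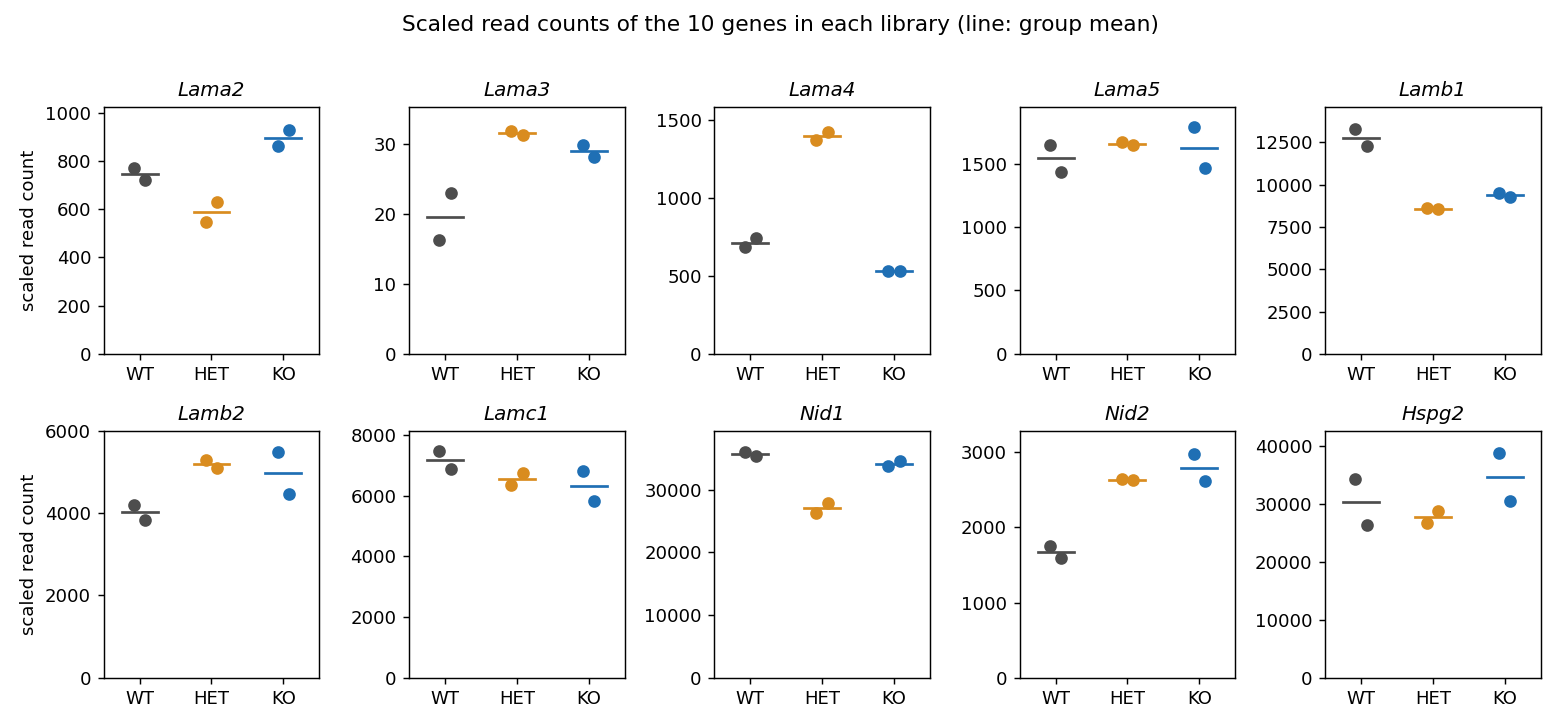
Scaled value of each of the 10 members in the 6 libraries, 1 panel per gene, with points for libraries and a line at each group mean. Lama4 is highest in the heterozygous libraries, Lamb1 is highest in wildtype, and Nid2 is lowest in wildtype.

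Among the alpha chains, Lama4 and Lama2 each passed the test in at least 1 comparison, and their group means lay in opposite order. Lama4, the alpha chain of vascular laminins made by endothelial and mesenchymal cells, had scaled values of 682.0 and 739.0 in wildtype, 1367.6 and 1421.2 in heterozygous and 530.2 and 532.8 in knockout libraries. The groups did not overlap in any pairing: heterozygous libraries were highest and knockout libraries lowest. Against wildtype, Lama4 rose in heterozygous to 196% of the wildtype mean (log2 change 0.97 ± 0.10 SE, limma with Benjamini-Hochberg adjustment, adjusted p = 0.000495). It fell in knockout to 74.8% (-0.42 ± 0.10, adjusted p = 0.0219). Knockout was lower than heterozygous by the widest margin of any member (-1.39 ± 0.10, adjusted p = 1.73e-05). Under every one of the 16 alternative settings tried, the rise in heterozygous and the difference between knockout and heterozygous passed the test. The fall in knockout did not pass once any 1 of the other groups' libraries was left out, with an adjusted p of 0.111 and 0.248 for wildtype 1 and 2 and of 0.0732 and 0.0733 for heterozygous 1 and 2. It also missed the threshold with the spread taken from the 2 compared groups alone (0.0802) and without a mean trend in the spread (0.0633), over a range of 0.00128 to 0.248. In the authors' deposited table, the adjusted p of Lama4 in knockout against wildtype was 0.0886.

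Macrophage and leukocyte markers followed the same order as Lama4. The summed scaled value of the 7 genes Ptprc, Csf1r, C1qa, C1qb, Lyz2, Cd68 and Mrc1 was 24650 and 25262 in wildtype, 53270 and 48846 in heterozygous and 10667 and 10256 in knockout libraries. All 7 rose in heterozygous and all 7 fell in knockout against wildtype. Fibroblast markers differed among themselves: Col1a1 made up most of their sum and did not pass in any comparison, while Pdgfra, Dcn, Lum and Dpt all rose in heterozygous against wildtype. Dcn also had the order of Lama4, with 1164.2 and 1221.9 in wildtype, 2237.1 and 2290.5 in heterozygous and 646.2 and 535.3 in knockout libraries, and it fell in knockout. Pdgfra instead rose in knockout, to 1765.6 and 1510.5 from 427.3 and 459.9 in wildtype. Lum and Dpt did not pass in knockout against wildtype. In knockout against heterozygous 3 of the 5 fell and none rose, and the sum of the 5 was 134580 to 153771 in wildtype, 119403 to 130170 in heterozygous and 97122 to 125222 in knockout libraries. Endothelial markers summed to 555.0 and 559.1 in wildtype, 583.9 and 644.5 in heterozygous and 1208.2 and 1070.6 in knockout libraries, but their members did not move together. Kdr made up most of that sum and rose in heterozygous and further in knockout, whereas Emcn fell from 171.8 and 171.4 in wildtype to values of 9.06 to 20.1 in the heterozygous and knockout libraries. Pecam1 had a scaled value of at most 9.12 in any library. The part of these markers in the Lama4 result was not tested. In RNA of whole samples, fewer cells of a type and less RNA per cell cannot be told apart, and this holds for every member.

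**Figure D2:**
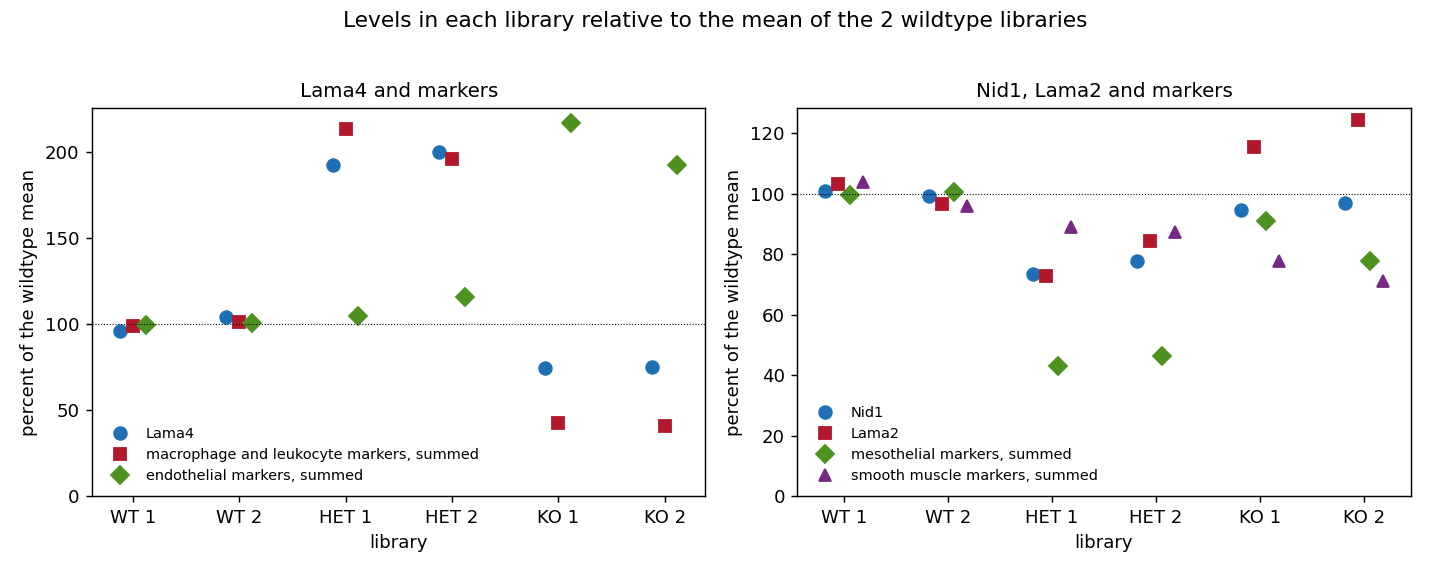
Levels as percent of the wildtype mean in each library for Lama4 beside summed macrophage and endothelial markers, and for Nid1 and Lama2 beside summed mesothelial and smooth muscle markers. Macrophage and leukocyte markers lie at 196% to 214% in heterozygous and 41.1% to 42.7% in knockout libraries, and mesothelial markers at 43.0% and 46.5% in heterozygous.

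Lama2, the alpha chain of the main laminin of muscle basement membranes and a ligand of dystroglycan, had scaled values of 771.8 and 722.3 in wildtype, 544.7 and 630.0 in heterozygous and 862.9 and 928.8 in knockout libraries. Its groups did not overlap either, but here knockout libraries were highest and heterozygous libraries lowest. Knockout exceeded heterozygous by 0.61 ± 0.11 on the log2 scale, a level of 152% (limma, adjusted p = 0.00619). Without heterozygous replicate 1 this difference no longer passed (adjusted p = 0.111, range over the alternatives 2.9e-05 to 0.111). Neither comparison with wildtype passed, with a log2 difference of -0.35 ± 0.11 in heterozygous (adjusted p = 0.107) and 0.26 ± 0.11 in knockout (adjusted p = 0.185). The heterozygous difference of Lama2 passed when the knockout libraries were left out in full (0.00462) or 1 at a time (0.00454 without replicate 1 and 0.00431 without replicate 2), and the knockout difference passed without knockout replicate 1 (0.0376).

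Lama5, the broadly expressed alpha chain of epithelial and endothelial basement membranes, did not pass in any comparison. Its scaled values were 1644.9 and 1438.2 in wildtype, 1668.7 and 1649.6 in heterozygous and 1787.4 and 1465.3 in knockout libraries, and the knockout libraries overlapped those of both other groups. The log2 difference of Lama5 from wildtype was 0.11 in heterozygous (95% interval -0.16 to 0.37) and 0.07 in knockout (-0.19 to 0.34), so each interval held changes in both directions. Lama3, an alpha chain of epithelial anchoring laminins, had 21 to 35 reads per library. Its scaled values were 16.26 and 23.0 in wildtype, 31.93 and 31.26 in heterozygous and 29.91 and 28.11 in knockout libraries, lowest in wildtype, and no difference passed the test.

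As a share of the summed per-length level of the 4 alpha chains, Lama4 made up 19.4% and 22.4% in wildtype, 34.7% and 34.8% in heterozygous and 14.5% and 15.6% in knockout libraries. With the M21 transcript lengths these shares were 33.3% and 37.5%, 52.3% and 52.4%, and 26.0% and 27.9%. The order of the genotypes was the same with both lengths, and the heterozygous libraries stood apart from all others. By the deposited lengths Lama5 was the most abundant alpha chain in every library, with 43.0% to 52.0% of the sum. By M21 lengths Lama4 exceeded Lama5 in both heterozygous libraries, at 52.3% and 52.4% against 33.9% and 32.3%.

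The beta chains diverged: Lamb1 fell in both Cre-positive groups, while Lamb2 had higher values in them that did not pass the test. Lamb1, the beta chain of the laminins of early and many adult basement membranes, had scaled values of 13280.4 and 12268.9 in wildtype, 8600.6 and 8559.4 in heterozygous and 9491.4 and 9284.0 in knockout libraries. All 4 Cre-positive libraries lay below both wildtype libraries. Lamb1 fell to 67.2% of wildtype in heterozygous (log2 change -0.57 ± 0.08, limma adjusted p = 0.0028) and to 73.5% in knockout (-0.44 ± 0.08, adjusted p = 0.00688). Knockout and heterozygous differed by 0.13 ± 0.08 (95% interval -0.06 to 0.32, adjusted p = 0.377). Leaving out wildtype 1 (0.0704), heterozygous 1 (0.0646) or heterozygous 2 (0.064) ended the heterozygous call of Lamb1, over a range of 5.47e-08 to 0.0704. The knockout call ended when wildtype 1 (0.127) or wildtype 2 (0.0509) was left out, and when no mean trend was used (0.0518), over a range of 6.55e-05 to 0.127. Both comparisons use the same wildtype libraries.

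Lamb2, the beta chain of synaptic, glomerular and arterial smooth muscle laminins, had scaled values of 4202.6 and 3829.7 in wildtype, 5282.4 and 5100.3 in heterozygous and 5479.9 and 4472.7 in knockout libraries. The wildtype libraries were lowest and did not overlap with either other group. The log2 difference of Lamb2 from wildtype was 0.37 ± 0.11 in heterozygous (adjusted p = 0.079) and 0.30 ± 0.11 in knockout (adjusted p = 0.116). In heterozygous it passed under 6 of the 16 alternatives, among them DESeq2 on the recovered reads (0.0445) and limma after quantile normalization (0.0424). Of the fits that leave out 1 library, that without knockout replicate 2 passed in knockout (7.63e-05).

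The ratio of Lamb2 to Lamb1 per length was 0.709 and 0.699 in wildtype, 1.38 and 1.33 in heterozygous and 1.29 and 1.079 in knockout libraries by the deposited lengths. Relative to the wildtype mean, which removes the length, the ratio stood at 1.95 and 1.90 times in heterozygous and 1.84 and 1.53 times in knockout libraries. Every Cre-positive library thus had more Lamb2 for its Lamb1 than both wildtype libraries. Summed over both chains, the per-length level of the beta chains was 1801.3 and 1654.7 in wildtype, 1621.9 and 1586.2 in heterozygous and 1727.7 and 1532.1 in knockout libraries. These sums overlapped between knockout and wildtype. With the M21 transcript lengths, which give Lamb1 more weight, they were 3042.6 and 2801.5 in wildtype, 2425.4 and 2385.9 in heterozygous and 2614.5 and 2399.7 in knockout libraries. Wildtype then stood above both other groups without overlap, so the overlap depends on the length used.

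Lamc1, the gamma chain shared by most laminins, did not pass in any comparison. It had scaled values of 7459.2 and 6877.6 in wildtype, 6347.1 and 6735.5 in heterozygous and 6803.2 and 5815.8 in knockout libraries, with both wildtype libraries highest. The log2 difference of Lamc1 from wildtype was -0.13 in heterozygous (95% interval -0.36 to 0.09, adjusted p = 0.599) and -0.19 in knockout (-0.41 to 0.04, adjusted p = 0.293). Without knockout replicate 1 the knockout difference passed (adjusted p = 0.0071). Per length, the summed alpha chains stood at 234.8 to 291.0, the summed beta chains at 1532.1 to 1801.3 and Lamc1 at 569.5 to 730.4, so transcripts for alpha chains were the scarcest of the 3 chain types in every library, and they were so with the M21 lengths as well.

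**Figure D3:**
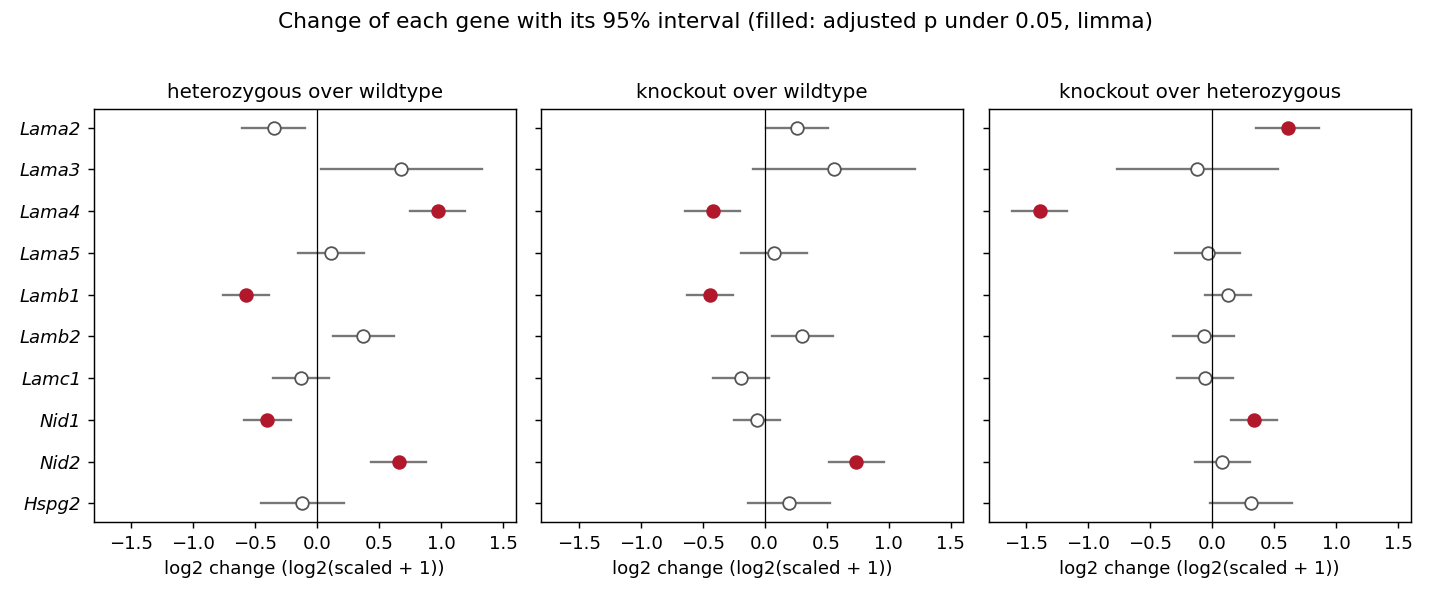
Log2 change of each member in the 3 comparisons with its 95% interval; filled points passed at an adjusted p under 0.05 and open points did not. Nid2 stands at 0.74 in knockout and 0.66 in heterozygous against wildtype, and Lama4 at -1.39 in knockout against heterozygous.

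The nidogens also diverged. Nid2, the less abundant nidogen, rose in both Cre-positive groups, and Nid1 fell in heterozygous. Nid2 had scaled values of 1747.1 and 1592.9 in wildtype, 2636.7 and 2629.5 in heterozygous and 2974.7 and 2614.0 in knockout libraries, so all 4 Cre-positive libraries exceeded both wildtype libraries. Nid2 reached 167% of wildtype in knockout (log2 change 0.74 ± 0.10, limma adjusted p = 0.00105) and 158% in heterozygous (0.66 ± 0.10, adjusted p = 0.00326). The knockout rise passed under all 16 alternatives (adjusted p 1.09e-08 to 0.0266). Leaving out wildtype 2 (0.0704), heterozygous 1 (0.0703) or heterozygous 2 (0.0664) ended the call in heterozygous, over a range of 1.8e-08 to 0.0704. Knockout and heterozygous overlapped, with a log2 difference of 0.08 (95% interval -0.14 to 0.30, adjusted p = 0.658).

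Exons of Nid2 overlap those of Rtraf, a protein-coding gene on the opposite strand in GENCODE M21, and the strand setting of the counting is not given in the sources used here. Values of Nid2 are therefore uncertain by the reads the overlap could contribute. Rtraf, listed in the file as 2700060E02Rik, had scaled values of 1494.8 and 1511.4 in wildtype, 1662.3 and 1665.2 in heterozygous and 1787.4 and 1805.0 in knockout libraries. It did not pass against wildtype in knockout (log2 difference 0.26 ± 0.09, limma adjusted p = 0.088) or in heterozygous (0.15 ± 0.09, adjusted p = 0.441). Lama2, Lama3 and Nid1 overlap annotated antisense transcripts (Gm48084, Gm29200 and Gm48682) and carry the same uncertainty.

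Nid1 had scaled values of 36005.4 and 35335.1 in wildtype, 26236.1 and 27784.8 in heterozygous and 33792.9 and 34520.8 in knockout libraries. The heterozygous libraries lay below all others, and the knockout libraries just below wildtype. Nid1 fell to 75.7% of wildtype in heterozygous (log2 change -0.40 ± 0.08, limma adjusted p = 0.0172) and was higher in knockout than in heterozygous by 0.34 ± 0.08 (adjusted p = 0.0276). Knockout differed from wildtype by -0.06 (95% interval -0.25 to 0.13, adjusted p = 0.701). Leaving out wildtype 1 or 2 (0.208 and 0.167) or heterozygous 1 or 2 (0.236 and 0.135) ended the fall's call, as did no filter (0.0632) or no mean trend (0.0852), over a range of 3.83e-05 to 0.236. For knockout against heterozygous the same 4 omissions gave 0.0894, 0.0896, 0.264 and 0.141, over a range of 0.00216 to 0.264. Quantile normalization (0.0711), no filter (0.0896), no mean trend (0.101) and the fit to the compared groups alone (0.0904) ended that call too. The authors' deposited table gives adjusted p-values of 0.0386 and 0.108 for the same pair of comparisons.

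The summed mesothelial, epithelial, and neural and Schwann markers were each lowest in the heterozygous libraries, as were Nid1 and Lama2, but not every marker had that order. The summed scaled value of Wt1, Msln, Upk3b and Krt19 was 2327.6 and 2351.7 in wildtype, 1006.3 and 1088.1 in heterozygous and 2127.3 and 1817.2 in knockout libraries, and 3 of the 4 fell in heterozygous against wildtype. Wt1 was as low in knockout (212.1 and 156.4) as in heterozygous (195.2 and 200.8), and Krt19 did not pass in heterozygous and rose in knockout. Neural and Schwann markers summed to 948.2 and 908.3 in wildtype, 687.9 and 690.2 in heterozygous and 1387.7 and 1252.6 in knockout libraries, the order of Lama2. Of these, Tubb3 fell and S100b rose in heterozygous, and S100b and Stmn2 rose in knockout, against wildtype. Epithelial markers summed to 380.1 and 393.0 in wildtype, 187.0 and 155.1 in heterozygous and 202.1 and 213.8 in knockout libraries. The part of these 3 marker sets in the Nid1 and Lama2 results was not tested. The Nid2 to Nid1 ratio, relative to the wildtype mean, was 2.15 and 2.02 in heterozygous and 1.88 and 1.62 in knockout libraries against 1.04 and 0.963 in wildtype. The group means of the summed cartilage markers lay in the same order as those of Nid2, with sums of 89.8 and 78.4 in wildtype, 284.7 and 246.5 in heterozygous and 433.3 and 366.7 in knockout libraries over 5 genes. Col2a1 and Comp carried that order, while Acan had 22.4 and 11.5 in wildtype, 63.9 and 44.5 in heterozygous and 21.8 and 15.9 in knockout libraries, and Matn1 had reads in heterozygous alone. Their part was not tested either.

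For Hspg2, the gap between the replicates of wildtype and between those of knockout was wider than that between any pair of group means. Its scaled values were 34189.4 and 26281.3 in wildtype, 26637.5 and 28637.2 in heterozygous and 38795.1 and 30470.9 in knockout libraries. Replicate 1 exceeded replicate 2 by 1.301 times in wildtype and 1.27 times in knockout, and the ratio was 0.930 in heterozygous. The log2 difference of Hspg2 in knockout was 0.20 ± 0.15 against wildtype (limma adjusted p = 0.46) and 0.32 ± 0.15 against heterozygous (adjusted p = 0.219). Without knockout replicate 2 these differences were 0.372 and 0.49, and without knockout replicate 1 they were 0.024 and 0.142. Each of these fits rests on 1 knockout library. Heterozygous differed from wildtype by -0.12 ± 0.15 (95% interval -0.45 to 0.21, adjusted p = 0.797), so with 2 libraries a group the interval held changes in both directions.

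Over the whole set, 3 of the 10 members passed in knockout against wildtype (Nid2 higher; Lama4 and Lamb1 lower), where 12.5% of the 15781 genes tested passed, 5.42% higher and 7.1% lower. In heterozygous against wildtype 4 members passed (Lama4 and Nid2 higher; Lamb1 and Nid1 lower), against 8.07% of all genes, 5.33% higher and 2.74% lower. Between knockout and heterozygous 3 members passed (Lama2 and Nid1 higher, Lama4 lower in knockout), against 12.5% of all genes, 4.39% higher and 8.09% lower. The members had no common direction: the median log2 change of the 10 was 0.14, -0.00 and 0.02 in these comparisons, and that of all genes tested was -0.00, 0.01 and 0.00. Libraries of the compared groups did not overlap for 8 members in the first comparison (4 higher, 4 lower), against 50.1% of all genes tested (24.8% higher, 25.4% lower). The counts were 9 (5 higher, 4 lower) against 54.8% (28.8% and 26%) in heterozygous against wildtype, and 6 (4 higher, 2 lower) against 50.4% (25.4% and 25%) in knockout against heterozygous. Both comparisons with wildtype share the wildtype libraries. By the adjusted p in the authors' deposited table, 2, 4 and 2 members passed in these comparisons. The share of all genes that passed by that measure was not computed, so these counts have nothing to be set against.

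Other basement membrane genes were mostly lower in knockout where they passed. Of 25 genes, 24 were tested, and against wildtype 2 rose and 9 fell in knockout and 6 rose and 5 fell in heterozygous, with median log2 changes of -0.33 and -0.27. Of all genes tested, 5.42% rose and 7.1% fell in knockout and 5.33% rose and 2.74% fell in heterozygous. Between knockout and heterozygous 5 of the 24 were higher and 9 lower in knockout, with a median of -0.05. Of all genes tested, 4.39% were higher and 8.09% lower there. The type IV collagen chain Col4a1, which forms the network bound by nidogens, had scaled values of 54181.2 and 50782.6 in wildtype, 31834.2 and 31519.2 in heterozygous and 33250.0 and 28428.8 in knockout libraries, and fell by 0.77 ± 0.10 on the log2 scale in knockout (limma adjusted p = 0.000914). Its heterozygous libraries lay between its knockout libraries. Col15a1, a collagen at the junction of basement membrane and stroma, had scaled values of 489.2 and 475.6 in wildtype, 500.0 and 470.1 in heterozygous and 102.4 and 95.3 in knockout libraries, and its knockout change was -2.28 ± 0.12 (adjusted p = 8.62e-06). The heterozygous libraries of Col15a1 overlapped the wildtype libraries, and the knockout libraries lay far below both. Lama1, the alpha chain of early embryonic laminin, was outside the 10 members and fell by 1.89 ± 0.24 in knockout (adjusted p = 0.000848), from scaled values of 128.5 and 104.5 to 27.2 and 34.2. Netrin-4 (Ntn4), a laminin-related protein that binds the gamma chain and disrupts laminin assembly, fell by 0.83 ± 0.11 in knockout (adjusted p = 0.00111). Tinagl1, a secreted basement membrane protein, rose by 0.93 ± 0.14 in knockout (adjusted p = 0.00172). These 5 knockout changes passed under all 16 alternatives. Smoc1 and Agrn rose in heterozygous and fell in knockout against wildtype, as Lama4 did. The log2 changes of Smoc1 were 0.65 ± 0.09 and -0.66 ± 0.09 (limma adjusted p = 0.00241 and 0.00139). Those of Agrn were 0.44 ± 0.10 and -0.46 ± 0.10 (limma adjusted p = 0.0299 and 0.0167). The heterozygous rise of Smoc1 passed under 13 of the 16 alternatives. Smoc2, Npnt, Frem1 and Col18a1 also rose in heterozygous but did not pass in knockout against wildtype.

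**Figure D4:**
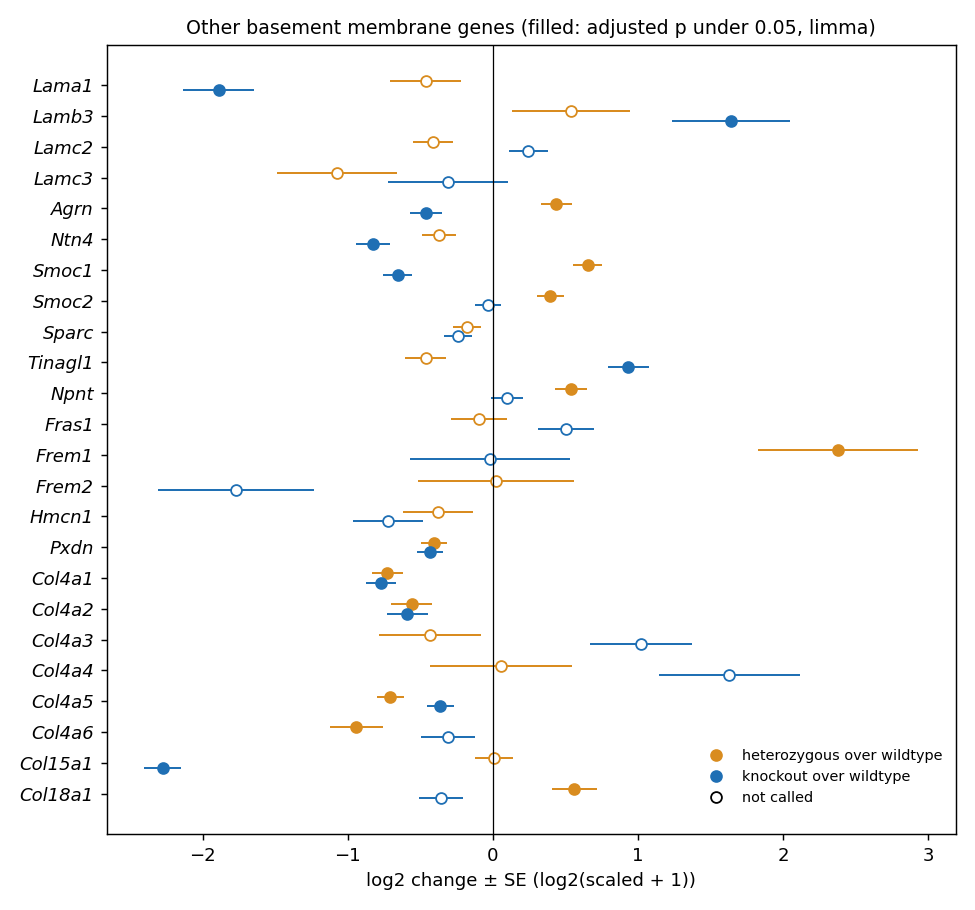
Log2 change against wildtype of the other basement membrane genes tested, in knockout and heterozygous, with filled points for those that passed at an adjusted p under 0.05. Col15a1 stands at -2.28 and Col4a1 at -0.77 in knockout.

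Among 22 tested receptors of laminin and parts of the dystrophin complex, 4 rose and 4 fell in knockout and none rose and 3 fell in heterozygous against wildtype, with median log2 changes of 0.04 and -0.07. Of all genes tested, 5.42% rose and 7.1% fell in knockout and 5.33% rose and 2.74% fell in heterozygous. Between knockout and heterozygous 5 of the 22 were higher and 1 lower in knockout, with a median of 0.08. The shares over all genes tested were 4.39% higher and 8.09% lower. Mcam, a cell adhesion molecule that binds Lama4-containing laminin, had scaled values of 2838.6 and 2814.8 in wildtype, 746.3 and 773.1 in heterozygous and 667.1 and 762.6 in knockout libraries. Its log2 change was -1.99 ± 0.10 in knockout (limma adjusted p = 7.15e-06) and -1.89 ± 0.10 in heterozygous (adjusted p = 3.7e-05). Mcam was thus low in both Cre-positive groups, whereas Lama4 was high in one and low in the other. Itga7, the integrin alpha chain of the muscle laminin receptor, fell by 1.13 ± 0.14 in knockout (adjusted p = 0.000779). Its log2 change in heterozygous was -1.02 ± 0.14 (limma adjusted p = 0.00226), a call lost without wildtype replicate 1 or heterozygous replicate 1. Itga7 was thus low in both Cre-positive groups, like Mcam. The laminin-binding integrin chain Itga3 rose by 0.78 ± 0.11 (adjusted p = 0.00108) and the collagen- and laminin-binding chain Itga2 by 1.40 ± 0.18 (adjusted p = 0.000761) in knockout. These knockout changes and the heterozygous change of Mcam passed under all 16 alternatives.

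Of 16 genes for the synthesis and editing of heparan sulphate, the chain carried by perlecan, 3 rose and 3 fell in knockout and 2 rose and 2 fell in heterozygous against wildtype, with median log2 changes of 0.05 and 0.13. Of all genes tested, 5.42% rose and 7.1% fell in knockout and 5.33% rose and 2.74% fell in heterozygous. Heparanase (Hpse), which cuts heparan sulphate chains, had scaled values of 91.3 and 93.0 in wildtype, 184.3 and 168.3 in heterozygous and 182.2 and 172.3 in knockout libraries. Its knockout rise was 0.94 ± 0.15 (limma adjusted p = 0.00258) and passed under all 16 alternatives. Between knockout and heterozygous 1 of the 16 fell and none rose, where 8.09% of all genes tested were lower and 4.39% higher in knockout.

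The genes whose pattern over the 6 libraries was most like that of Hspg2, by Pearson's r of log2 values among 9759 genes with a mean scaled value of 200 or more, were Spen (r = 0.985), Pgam1-ps2 (0.978), Traf7 (0.976), Ercc4 (0.976) and Mrpl34 (0.974). Those most like Lamc1 began with Dph2 (r = 0.985) and Tshz3 (0.982). These values describe 6 libraries and carry no test. An r over 0.95 was reached by 26 genes for Hspg2 and by 13 for Lamc1.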

How the data were processed

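RNA-seq of 6 libraries was analysed from 1 deposited table. Its deposited signal values are gene-level read counts scaled by the authors with a single factor for each library, since every value is a whole multiple of its library's step (tolerance 0.001 of a read), with 1 read worth 0.774 to 1.22 scaled units. Build mm9, DESeq 1.16.0, HTSeq 0.5.4p3 and TopHat2 2.0.4 were named, without roles, per the submitters' processing notes; strand setting and annotation release are not given in the sources used here. The deposited gene lengths, in bases, and the authors' adjusted p-values were used as they stood, the latter only where named.

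The 15781 genes that reached 10 scaled units in 2 or more libraries entered limma 3.58.1 (R 4.3.3) as log2(value + 1), in a single model of all 6 libraries with a mean trend (residual degrees of freedom 3, prior 6.17). P-values were Benjamini-Hochberg adjusted over all genes tested, and a gene passed under 0.05. Fold changes are on the log2(value + 1) scale and understate changes of low genes. With 2 libraries against 2, an exact permutation test cannot go below p = 0.333 and was not used. The 16 alternatives changed the pseudocount (0.5 or 5), filter, normalization, variance prior, samples or block, or used edgeR 4.0.16 or DESeq2 1.42.0 on the recovered reads. The script was tested on simulated data. All 10 members are named; of other lists, up to 4 genes with the smallest p in knockout against wildtype and any that passed could be named. Members, lists and tests were chosen with earlier results of these data known. Gene models, for overlaps and transcript lengths, came from GENCODE M21.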

Additional observations from a re-analysis of the deposited data

Results flagged for a closer look

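For 3 members the changes of the 2 Cre-positive groups against wildtype differed, by limma's test of knockout against heterozygous, which is the test of that difference itself. The log2 difference was -1.39 for Lama4 (adjusted p = 1.73e-05), which rose in heterozygous and fell in knockout. It was 0.61 for Lama2 (adjusted p = 0.00619) and 0.34 for Nid1 (adjusted p = 0.0276). The Lama2 difference did not pass without heterozygous replicate 1 (0.111), and the Nid1 difference did not pass without wildtype replicate 1 (0.0894), wildtype replicate 2 (0.0896), heterozygous replicate 1 (0.264) or heterozygous replicate 2 (0.141).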

How the results depend on the processing

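Over the 10 members, 3 comparisons and 16 alternatives, 427 values kept their direction and their side of the threshold, 30 lost a call, 15 gained one and 8 turned direction. None of the 8 passed the test. Direction could not turn with no filter, no mean trend, the compared groups alone, the replicate block or a library of the third group left out. In those alternatives the log2 change is that of the main fit by construction, and only the call could change. Leaving out 1 library at a time, Lama5 in knockout against wildtype (0.07) ran from -0.07 (without knockout replicate 1; -0.02 without wildtype replicate 2) to 0.22, and Hspg2 in heterozygous against wildtype (-0.12) from -0.31 to 0.072 (without wildtype replicate 1). In knockout against heterozygous, Lama5 (-0.04) ran from -0.18 to 0.11, Lamb2 (-0.07) from -0.215 to 0.078 and Lamc1 (-0.06) from -0.17 to 0.057, each positive without knockout replicate 2, and Nid2 (0.08) from -0.01 (without knockout replicate 1) to 0.18. Quantile normalization turned Lama3 there (-0.12) to 0.033. With 1 library left out, the number of genes called ranged from 865 to 5613 in knockout against wildtype (1977 with all libraries), from 320 to 3013 in heterozygous against wildtype (1274) and from 817 to 5673 in knockout against heterozygous (1968), and members called from 1 to 5, 1 to 6 and 1 to 4. In those fits a lone library is assumed to vary like the other groups. With the 2 compared groups alone, 3032 genes were called in heterozygous against wildtype, and without a mean trend 1 member was called in knockout against wildtype. Libraries with the same number deviated together (r = 0.227, 0.319 and 0.172 over 11437 genes), but only 2 numbers exist and the labels give them no shared source; the replicate block gave 2487, 1572 and 2510 genes and 4, 5 and 3 members called, the added member being Lamb2 (adjusted p = 0.0371 and 0.0204). The cause of these changes was not tested. Depth limited Lama3, with 21 to 35 reads per library.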
